A study of Mus musculus with 8 samples.

Results

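A group of 9 regulators of the blood and erythroid lineages were followed through mouse embryonic stem cells (ESC) and their retinoic acid treated descendants (RA-DIFF) with and without a functional huntingtin gene, Htt. The 9 genes, Tal1, Lyl1, Lmo2, Gata1, Klf1, Gfi1b, Epor, Runx1 and Spi1, were taken by name from the RNA-seq table of 32567 genes, and all 9 were in it. The samples were 4 poly-A RNA libraries, 1 for each condition: wild-type parental ESC, huntingtin-null ESC homozygous for the Hdh ex4/5 allele, and, from each of these, cells dissociated and plated after embryoid bodies had been treated with retinoic acid. Small RNA libraries of the same 4 conditions, again 1 for each, were also measured. With 1 library per condition there was no spread between replicates, no test of a condition could be made, and every interval given is the 95% interval of read counting only. Both genotypes were cultured alike with leukemia inhibitory factor and were taken off fibroblast feeders before embryoid bodies were formed. The labels do not say which clone each culture came from.

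Tal1, Lmo2, Gata1 and an E-protein partner sit together on DNA in erythroid progenitors, held by the bridging protein Ldb1, and switch on red cell genes such as the globins, with Klf1 acting on many of the same genes. Runx1 is needed for the first definitive blood cells to form from endothelium, and Spi1 drives the myeloid and B lineages. Several of these proteins have a second life outside blood: Tal1, its paralog Tal2, Gata2 and Gata3 also specify GABAergic neurons of the midbrain and the V2b interneurons of the spinal cord, and Runx1 and its paralogs act in skin, bone and sensory neurons.

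The libraries held 87924678 reads in wild-type ESC, 63617410 in Htt-null ESC, 110569127 in the RA-DIFF sample labelled wild type and 100927951 in the RA-DIFF sample labelled Htt-null. The limit that a count of 0 allows, 3 reads, was worth between 0.0271 and 0.0472 CPM (counts per 1000000 reads) in these libraries. Htt had 14385 reads in wild-type ESC, 7260 in Htt-null ESC, 8212 in the RA-DIFF sample labelled wild type and 9722 in the one labelled Htt-null. Its log2 ratio of Htt-null to wild type was therefore -0.58 in ESC and 0.43 in RA-DIFF, where it goes against the labels; exons outside the targeted ones also add to these counts. The per-condition expression levels in the study's supplementary material follow the opposite assignment of the RA-DIFF columns. The RA-DIFF libraries are for this reason named by their labels throughout, and if the labels were exchanged each RA-DIFF genotype ratio below would keep its size and change its sign.

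Markers of the labelled cell types were read first, and neural and mesenchymal markers were both higher in RA-DIFF than in ESC. The neural markers Nes, Sox1, Pax6, Tubb3 and Dcx summed to 57.7 and 106 CPM in wild-type and Htt-null ESC and to 2270 and 1470 CPM in the RA-DIFF libraries labelled wild type and Htt-null. The 8 fibroblast and mesenchyme markers, such as Col3a1 and Acta2, summed to 40.5, 24.7, 584 and 2260 CPM in the same order. The 5 pluripotency markers summed to 3420, 3400, 39.6 and 5.39 CPM. The globins, the end product of red cell formation, had 0 reads in both ESC libraries and 9 and 15 reads in all in RA-DIFF, over the 5 globin genes in the table, and none of the 5 reached 10 reads. In bulk RNA, fewer cells of a type and less RNA per cell cannot be told apart.

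The upstream sequences of the members that were higher in both RA-DIFF libraries than in ESC are shown because Tal1 and Epor are classical targets of GATA factors. RefSeq start sites (GRCm38.p6) were matched for 7 of the 9 members, with 9 starts in all, and no entry was matched for Lmo2 and Spi1. The 250 bases before each start are printed 5′ to 3′ on the strand of the gene. Capitals mark a GATA hexamer, searched on both strands as AGATAA or as AGATAG, and likewise with T in place of the first A. The windows lie at chr4:115056176-115056425 and chr4:115057561-115057810 (plus strand) for the 2 starts of Tal1 and at chr9:21963577-21963826 (minus strand) for Epor.
Tal1, first start: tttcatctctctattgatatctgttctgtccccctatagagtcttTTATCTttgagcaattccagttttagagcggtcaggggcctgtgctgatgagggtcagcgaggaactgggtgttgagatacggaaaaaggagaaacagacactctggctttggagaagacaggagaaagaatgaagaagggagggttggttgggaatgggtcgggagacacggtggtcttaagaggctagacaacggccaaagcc
Tal1, second start: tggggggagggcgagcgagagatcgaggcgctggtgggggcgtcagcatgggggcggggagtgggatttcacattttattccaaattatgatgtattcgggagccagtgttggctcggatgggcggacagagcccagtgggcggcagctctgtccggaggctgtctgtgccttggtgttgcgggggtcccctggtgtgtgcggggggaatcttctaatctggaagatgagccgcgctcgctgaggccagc
Epor: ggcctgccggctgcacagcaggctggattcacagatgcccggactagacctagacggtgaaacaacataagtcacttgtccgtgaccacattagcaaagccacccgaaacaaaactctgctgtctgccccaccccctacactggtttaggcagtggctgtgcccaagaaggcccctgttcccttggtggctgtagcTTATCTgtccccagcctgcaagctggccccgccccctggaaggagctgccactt
The first Tal1 start and the Epor start each held 1 such hexamer, read as TTATCT on the printed strand, and the second Tal1 start held 0. Over all members, 4 of 9 windows held a match (Tal1, Klf1, Gfi1b and Epor), against 26.5% of 32851 windows of the same length. The E-box CAGNTG was in 4 of 9 windows, against 44.8% of all windows, and the Klf-type string CCNCNCCC in 7 of 9, against 45.9%. No GATA match overlapped a match of the other strings in any member window. These are matches of letters and not binding sites.

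In ESC all 9 regulators were weakly expressed. Levels of genes are compared here only per length, as CPM per kilobase of exon. In wild-type ESC the order was Epor (0.51), Lmo2 (0.468), Klf1 (0.286), Lyl1 (0.211), Gata1 (0.175), Spi1 (0.15), Runx1 (0.131), Tal1 (0.0211) and Gfi1b (0.0063). Epor and Lmo2 had 88 reads each in this library, and neighbours in the middle of the order, with 33 to 38 reads each for Lyl1, Klf1, Gata1 and Spi1, rest on few reads. In the RA-DIFF sample labelled wild type Tal1 led the order at 4.11 CPM per kilobase, followed by Lmo2 (1.88) and Epor (1.24), while in the one labelled Htt-null Epor (1.26) and Lmo2 (1.17) stood above Runx1 (0.554) and Tal1 (0.538). Tal1, Lmo2, Epor and Runx1 passed the expression limit, an average log2 CPM above 0 over the 4 libraries, and 8 of 9 members reached 10 reads in at least 1 library.

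**Figure D1:**
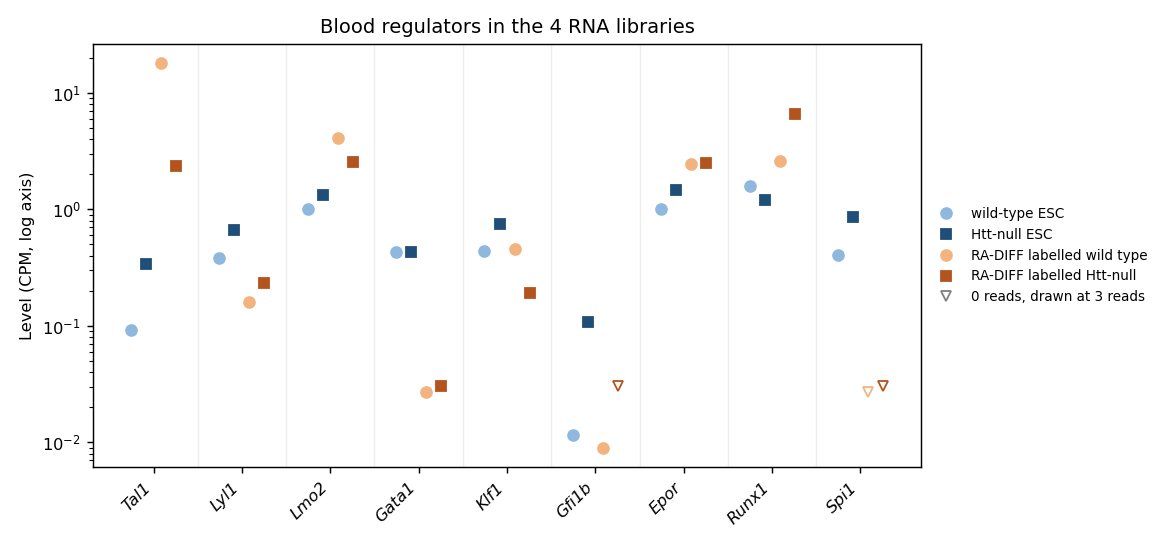
Level of each of the 9 regulators (CPM, log axis) in the 4 RNA libraries, 1 point per library; open triangles mark 0 reads and are drawn at the level of 3 reads. Tal1 spans from 0.0923 CPM in wild-type ESC to 18 CPM in the RA-DIFF sample labelled wild type, and Gata1 and Spi1 are lowest in the RA-DIFF libraries.

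The first comparison asked how RA differentiation moved the regulators. Tal1, Lmo2 and Epor were higher in RA-DIFF than in ESC in both labelled genotypes. Runx1 was higher in cells labelled Htt-null and lay just under the limit in the other pair. Gata1, Lyl1 and Spi1, under the expression limit and so outside the calls, had lower levels in RA-DIFF in both. A gene is called higher or lower where its log2 ratio passes 0.75 in size and its average log2 CPM is above 0, with no test. By this rule 3 of the 4 members above the limit were higher and 0 lower in the cells labelled wild type, against 33.9% of 15492 genes higher and 26.1% lower. In the cells labelled Htt-null 4 of 4 were higher and 0 lower, against 34.3% and 24.8%. Tal1 passed the expression limit only through RA-DIFF, where it is high, so its place in these counts was favoured by the limit and the counts and medians are a description only. In an exact test with a dispersion of 0.1, 2 members were called higher in each pair, Tal1 and Lmo2 in cells labelled wild type and Tal1 and Runx1 in cells labelled Htt-null. With the RA-DIFF labels exchanged, each would be compared with the other ESC line, and 4 of 4 members would be higher in wild type, Runx1 (2.06) among them, and 3 of 4 in Htt-null, where Epor (0.75) would lie just short of the limit. By the labels as given, the median log2 ratio of the 4 members was 1.62 and 1.69, and that of all 15492 genes 0.12 and 0.17. With every member of at least 10 reads counted, 3 of 8 were higher and 3 lower in cells labelled wild type, against 35.5% and 29.8% of all such genes, and 4 of 8 were higher and 4 lower in cells labelled Htt-null, against 34.5% and 30.3%. The members thus moved in both directions. Gata1 and Spi1 reached 10 reads only in ESC, where they are higher. In cells labelled wild type Tal1 reached 10 reads only in RA-DIFF. These wider counts are therefore also partly set by their rule and are a description only.

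Tal1 (chr4:115056426-115071755), the basic helix-loop-helix protein at the head of the blood program, had 8 reads in wild-type ESC, 22 in Htt-null ESC, 2016 in the RA-DIFF sample labelled wild type and 232 in the one labelled Htt-null. Both RA-DIFF libraries lay above both ESC libraries, and the one labelled wild type lay far above the rest. The log2 ratio of RA-DIFF over ESC was 7.30 (counting interval 6.63 to 8.82), a 195-fold difference, in cells labelled wild type. In cells labelled Htt-null it was 2.73 (2.17 to 3.51), a 6.99-fold difference. The ESC side rests on few reads, so that the size of the first ratio is known only within its interval.

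Lmo2 (chr2:103957986-103981878), the LIM-only protein that links Tal1 to Gata1, had 88 reads in wild-type ESC, 87 in Htt-null ESC, 456 in the RA-DIFF sample labelled wild type and 250 in the one labelled Htt-null. It followed the same order of libraries as Tal1 within RA-DIFF, with a smaller range. Its log2 ratio of RA-DIFF over ESC was 1.98 (1.67 to 2.35) in cells labelled wild type and 0.92 (0.57 to 1.3) in cells labelled Htt-null. Epor (chr9:21958899-21963576), the erythropoietin receptor, had 88, 95, 276 and 247 reads in wild-type ESC, Htt-null ESC and the RA-DIFF libraries labelled wild type and Htt-null, and the libraries of each stage lay close together. Its log2 ratio was 1.26 (0.93 to 1.64) and 0.78 (0.44 to 1.14) in the same order of genotypes. The second value lies just inside the fold limit and falls below it when libraries are scaled by total counts only. Its ligand Epo had 5 and 4 reads in ESC and 0 in both RA-DIFF libraries.

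Runx1 (chr16:92601466-92826149), the DNA-binding partner of Cbfb, had 137 reads in wild-type ESC, 78 in Htt-null ESC, 291 in the RA-DIFF sample labelled wild type and 656 in the one labelled Htt-null. Unlike Tal1 and Lmo2, it was highest in the RA-DIFF sample labelled Htt-null. The log2 ratio of RA-DIFF over ESC was 0.71 (0.42 to 1.02) in cells labelled wild type, just outside the fold limit, and 2.46 (2.14 to 2.84) in cells labelled Htt-null. Runx1 shares 106 exon bases with Gm26626 on the opposite strand, which had at most 3 reads in any library.

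The remaining members fell short of the expression limit and are given as counts. Gata1 (chrX:7959260-7978071), the erythroid and megakaryocytic GATA factor, had 37 and 28 reads in wild-type and Htt-null ESC and 3 reads in each RA-DIFF library. The RA-DIFF libraries thus sat at the 3-read limit although they were the deeper ones, and the log2 ratios were -3.20 (-6.34 to -2.34) in cells labelled wild type and -3.10 (-6.18 to -2.12) in cells labelled Htt-null. Spi1 (chr2:91082390-91115756), which encodes the ETS factor PU.1, had 35 and 56 reads in wild-type and Htt-null ESC and 0 in both RA-DIFF libraries. Counted against 3 reads per library, Spi1 was at least 15.1-fold lower in cells labelled wild type and at least 28.2-fold lower in cells labelled Htt-null; with the error of the ESC counts included, the log2 ratio had upper ends of -3.54 and -4.47. It was therefore an ESC-side transcript in these cultures.

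Lyl1 (chr8:84701457-84704715), the closest paralog of Tal1 in blood, had 33 and 43 reads in wild-type and Htt-null ESC and 18 and 23 in the RA-DIFF libraries labelled wild type and Htt-null, opposite in direction to Tal1. Its log2 ratio of RA-DIFF over ESC was -1.14 (-2.16 to -0.37) in cells labelled wild type and -1.41 (-2.29 to -0.73) in cells labelled Htt-null. Lyl1 shares 4 exon bases with Nfix on the opposite strand. Klf1 (chr8:84901928-84905295), the erythroid Krüppel-like factor, had 38, 49, 51 and 19 reads in wild-type ESC, Htt-null ESC and the RA-DIFF libraries labelled wild type and Htt-null. Only the last library stood below the others, with a log2 ratio of RA-DIFF over ESC of 0.05 (-0.58 to 0.70) in cells labelled wild type and -1.85 (-2.81 to -1.17) in cells labelled Htt-null. Gfi1b (chr2:28609450-28621982), a transcriptional repressor that acts within the erythroid and platelet lineages, had 1, 7, 1 and 0 reads in the same order. For the 7 reads of Htt-null ESC against 0 in RA-DIFF labelled Htt-null, the counting interval of the log2 ratio of RA-DIFF over ESC ended at -1.12.

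**Figure D2:**
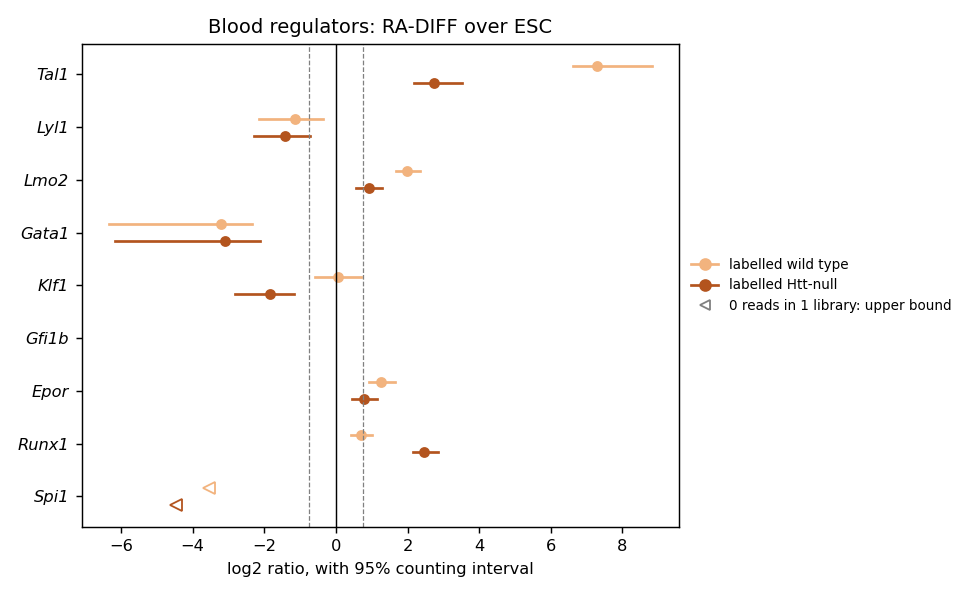
Log2 ratio of RA-DIFF over ESC for each regulator with at least 10 reads in the pair, in cells labelled wild type and labelled Htt-null (horizontal axis); lines are 95% counting intervals, dashed lines the fold limit of 0.75, and open triangles upper bounds where RA-DIFF had 0 reads. Tal1 lies farthest to the right in cells labelled wild type (7.30), and Gata1, Lyl1 and Spi1 lie to the left in both.

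The second comparison asked whether loss of Htt moved the regulators in ESC. Of the members above the expression limit 1 of 4, Tal1, was higher in Htt-null ESC and 0 were lower, against 5.14% of 15492 genes higher and 3.47% lower. Tal1 stood at 0.0923 and 0.337 CPM in the ESC libraries, so this count supports nothing about ESC. The log2 ratio of Htt-null to wild type for Tal1 was 1.65 (0.65 to 3.25), from 22 against 8 reads. This call was lost, leaving 0 members, in an exact test with a dispersion of 0.1. With every member of at least 10 reads counted, 3 of 8 were higher (Tal1, Spi1 and Lyl1) and 0 lower, against 11.1% and 7.26% of all such genes. Tal1 reached 10 reads here only in Htt-null ESC, so its place in this count was favoured by the rule. The Spi1 ratio was 1.05 (0.45 to 1.74) and the Lyl1 ratio 0.76 (0.10 to 1.49), just inside the limit. Gfi1b, below 10 reads, had 7 reads against 1 and a ratio of 1.95 (0.26 to 8.71). In the same comparison 4 of 5 neural markers were higher and 0 lower (median 0.81; Dcx, among them, rests on 5 and 8 reads), and 0 of 8 fibroblast and mesenchyme markers were higher and 5 lower (median -0.84), against 5.14% and 3.47% of all genes; the part of these cell types in the member ratios was not tested.

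Klf1, with a log2 ratio of 0.75 (0.14 to 1.43), lay at the limit and just outside it. Lyl1 and Klf1 are both on chromosome 8, where the 816 genes above the limit had a median ratio of 0.36 (log2) in ESC, against -0.05 for genes on the other chromosomes; the part of this shift in the ratios of Lyl1 and Klf1 was not tested. Epor had 0.51 (0.09 to 0.96), Lmo2 0.39 (-0.05 to 0.84) and Gata1 0.01 (-0.75 to 0.76), while Runx1 was the only member with a negative value, -0.40 (-0.82 to 0.01). For Lmo2, Gata1 and Runx1 a difference was not detectable at this depth.

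The third comparison asked the same of RA-DIFF cells. By the labels, Tal1 was lower and Runx1 higher in the Htt-null library, which makes 1 member higher and 1 lower of 4, against 11.7% and 8.99% of 15492 genes. Tal1 stood at 18 CPM in the library labelled wild type and 2.36 CPM in the one labelled Htt-null, 7.64-fold higher in the former, with a log2 ratio of Htt-null to wild type of -2.92 (-3.14 to -2.74). Runx1 stood at 2.60 and 6.66 CPM, with a log2 ratio of 1.35 (1.16 to 1.56). Lmo2 had a ratio of -0.68 (-0.91 to -0.46), in the direction of Tal1 but just outside the limit, and Epor of 0.03 (-0.23 to 0.28).

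Of the members with at least 10 reads in RA-DIFF, 1 of 6 was higher and 2 were lower, against 13.2% and 13.2% of all such genes. The second lower member was Klf1, with -1.15 (-2.08 to -0.45) from 19 against 51 reads; genes of chromosome 8 had a median of -0.22 in this comparison, against 0.0 elsewhere. Lyl1 had 0.48 (-0.41 to 1.52). Gata1, Gfi1b and Spi1 had at most 3 reads in either RA-DIFF library and allow no comparison of genotypes there.

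**Figure D3:**
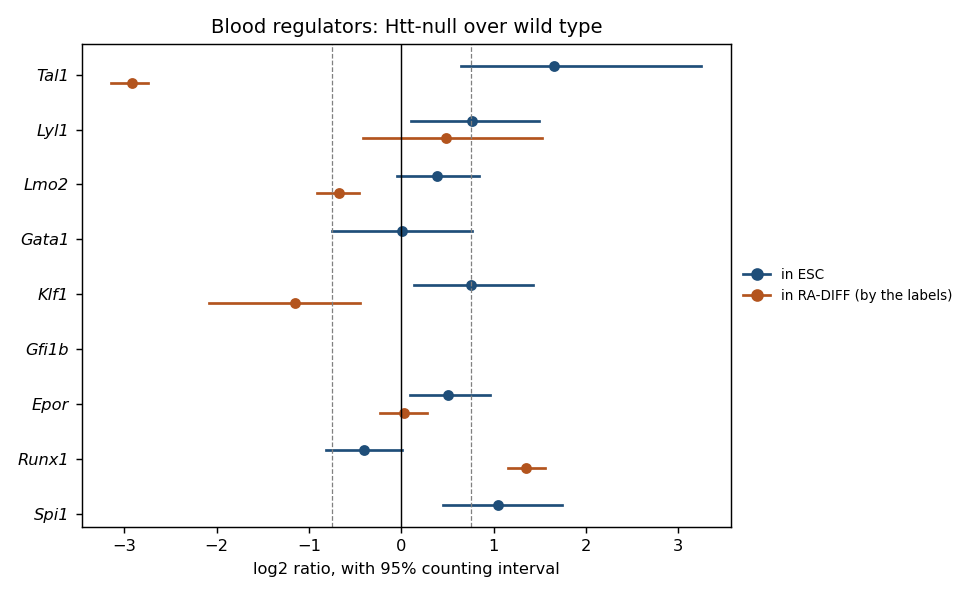
Log2 ratio of Htt-null to wild type for each regulator with at least 10 reads in the pair, in ESC and in RA-DIFF by the labels (horizontal axis); lines are 95% counting intervals and dashed lines the fold limit of 0.75. In RA-DIFF Tal1 lies at -2.92 and Runx1 at 1.35, while in ESC Tal1 and Runx1 lie on the opposite sides of 0.

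The partners and paralogs of these factors were the list nearest to Tal1. It held 21 genes, 20 of them above the limit: E-proteins, Ldb1 and its Ssbp cofactors, LIM-only and GATA paralogs, Tal2, the Eto family, Zfpm1 and the Runx family. In RA-DIFF over ESC 14 were higher and 0 lower in cells labelled wild type (median 1.86, against 33.9% and 26.1% of all genes), and 13 were higher and 2, Runx3 and Zfpm1, lower in cells labelled Htt-null (median 1.79, against 34.3% and 24.8%). Tal2, Lmo3, Gata2, Runx2 and Cbfa2t3 were below 1 CPM in both ESC libraries and passed the limit only through RA-DIFF, so these counts and medians are partly set by the limit and support nothing. Tcf12, an E-protein and dimer partner of Tal1, had 5236, 3581, 66376 and 68304 reads in wild-type ESC, Htt-null ESC and the RA-DIFF libraries labelled wild type and Htt-null. Ldb1 was well expressed in every library, with 21888, 15847, 34898 and 24893 reads. Both were thus well counted in ESC, where Tal1 had few reads.

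By the labels, 1 of these 20 genes was higher and 6 were lower in Htt-null RA-DIFF, against 11.7% and 8.99% of all genes (median -0.29, against -0.01). The 6 were Tal2, Gata3, Cbfa2t3, Runx1t1, Zfpm1 and Gata2 (Cbfa2t3, Runx1t1 and Zfpm1 are named after their values were seen). Tal2, the neural paralog of Tal1, had 25, 17, 9767 and 1022 reads in wild-type ESC, Htt-null ESC and the RA-DIFF libraries labelled wild type and Htt-null, the same order of RA-DIFF libraries as Tal1. Its log2 ratio of Htt-null to wild type in RA-DIFF was -3.07 (-3.16 to -2.98), next to -2.92 for Tal1. Gata3 had 113, 59, 1727 and 332 reads and a ratio of -2.19 (-2.37 to -2.02), and Gata2 had 32, 27, 1690 and 734 reads and a ratio of -1.01 (-1.14 to -0.89).

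Gata2 and Gata3 thus had many reads in RA-DIFF, where Gata1 had 3. Runx2, the bone-forming paralog of Runx1, was the 1 gene of the list that was higher, with 30, 11, 456 and 1431 reads and a ratio of 1.83 (1.68 to 1.99), the same direction as Runx1. Runx3 had 112, 151, 116 and 100 reads and a ratio of -0.03 (-0.43 to 0.37). In ESC 1 gene of the list was higher (Runx3, 0.83) and 1 lower (Runx2, -0.95), against 5.14% and 3.47% of all genes, with a median of -0.14. Runx2 passed the limit only through RA-DIFF. Its ESC ratio (-2.18 to 0.0) rests on 11 reads in Htt-null and 30 in wild-type ESC, so its call supports nothing about ESC.

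Genes of V2 interneurons and GABAergic neurons, among them Tal2, Gata2 and Gata3 again, were read because Tal1 acts in these neurons. In RA-DIFF over ESC several of the 8 above the limit, Sox14 and Tal2 among them, passed it only through RA-DIFF, so no count is given there. Sox14, a factor of V2 interneurons and GABAergic neurons, had 0 reads in both ESC libraries, 618 in the RA-DIFF sample labelled wild type and 51 in the one labelled Htt-null. Its log2 ratio of Htt-null to wild type in RA-DIFF was -3.36 (-3.85 to -3.00). Gad1 and Gad2, the enzymes that make GABA, had ratios of -0.25 (-0.32 to -0.17) and -0.71 (-0.80 to -0.63), short of the fold limit. By the labels 0 of the 8 were higher and 4 (Tal2, Gata2, Gata3 and Sox14) lower in Htt-null RA-DIFF, against 11.7% and 8.99% of all genes, with a median of -0.86. Sox14 passed the limit only through the RA-DIFF library labelled wild type, where it is high (5.52 CPM). This count and median are therefore partly set by the limit and are a description only. Of the 5 neural markers 0 were higher and 4 lower, all but Nes (median -0.89), and of the 5 pluripotency markers 0 were higher and 5 lower (median -2.88), against the same shares. The part of these other cell types in the Tal1 and Lmo2 ratios was not tested.

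Markers of mature blood were read beside the regulators. Slc4a1, the red cell anion exchanger, had 67, 65, 2 and 1 reads in wild-type ESC, Htt-null ESC and the RA-DIFF libraries labelled wild type and Htt-null. Alas2, the erythroid enzyme of the first step of heme synthesis, had 28, 33, 60 and 30 reads. In CPM Alas2 stood at 0.323, 0.506, 0.535 and 0.305 in the same order, so that its levels in Htt-null ESC and in the RA-DIFF culture labelled wild type were nearly alike, while Slc4a1 was higher in the ESC libraries. Of the 10 heme genes above the limit, 0 were higher and 0 lower in either genotype comparison, against 5.14% and 3.47% of all genes in ESC and 11.7% and 8.99% in RA-DIFF. Alad, the enzyme of the second step, for example, had a log2 ratio of 0.66 (0.58 to 0.74) in ESC and 0.01 (-0.04 to 0.06) in RA-DIFF.

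Genes of the red cell membrane gave 2 higher and 2 lower of 7 in Htt-null RA-DIFF by the labels, against 11.7% and 8.99% of all genes, and 0 of either in ESC, against 5.14% and 3.47%. Ank1, the ankyrin of the membrane skeleton, had 76, 68, 801 and 299 reads and a log2 ratio of -1.23 (-1.43 to -1.04) in RA-DIFF. The transferrin receptor Tfrc, which all dividing cells use, had a ratio of -0.70 (-0.72 to -0.68).

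Of the 6 genes taken to define leukocytes 3 had few reads in every library, and the 6 summed to 98.4, 65.5, 21.5 and 8.1 CPM in wild-type ESC, Htt-null ESC and the RA-DIFF libraries labelled wild type and Htt-null. Laptm5 made up most of the sums in wild-type and Htt-null ESC (86.2 and 53.0 CPM). Coro1a made up most of them in RA-DIFF labelled wild type and Htt-null (20.7 and 7.58 CPM). Ptprc, which encodes the pan-leukocyte antigen CD45, had 3, 0, 1 and 4 reads in wild-type ESC, Htt-null ESC and the RA-DIFF libraries labelled wild type and Htt-null, and Csf1r, the macrophage receptor, 7, 7, 6 and 5. Tyrobp had 0, 0, 0 and 1. Most of the 7 leukocyte genes above the limit passed it through the ESC libraries and stood below 1 CPM in both RA-DIFF libraries, so no count is given for RA-DIFF. In ESC 0 of the 7 were higher or lower by genotype, against 5.14% and 3.47% of all genes. Coro1a, an actin-binding protein that neurons also make, had 327, 306, 2314 and 746 reads and a log2 ratio of -1.44 (-1.57 to -1.33) in RA-DIFF. Laptm5, a lysosomal protein known from blood cells, had 7479, 3459, 44 and 31 reads, so the ESC libraries carried most of this signal, as for Spi1. Of the 3 megakaryocyte genes above the limit 0 moved past the fold in either genotype comparison, a list too short to set against those shares, and Pf4 had 10, 9, 0 and 5 reads.

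**Figure D4:**
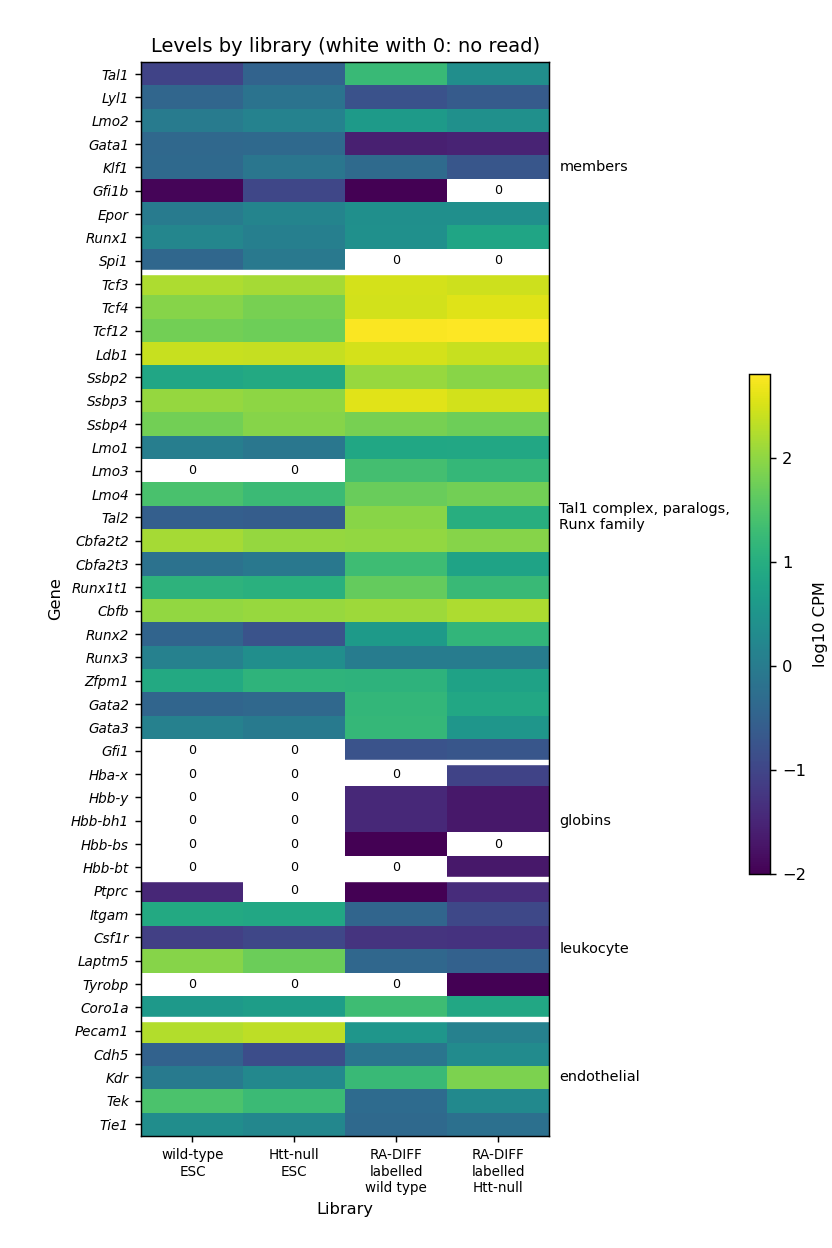
Level (log10 CPM, color) of the 9 regulators, of the partners and paralogs of the Tal1 complex and the Runx family, and of globin, leukocyte and endothelial genes in the 4 RNA libraries; rows are genes, to be read along the row and not between rows, since CPM is not scaled by length, and white cells with 0 had no read. Tal2, Gata2 and Gata3 are brightest in the RA-DIFF sample labelled wild type (9767, 1690 and 1727 reads), and the globins are at or near 0 everywhere.

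Blood and endothelium share early regulators, so other blood transcription factors and endothelial genes were also read. Of the 12 other blood transcription factors above the limit, 4 (Fli1, Hhex, Cebpa and Klf3) were higher and 3 (Ikzf1, Mecom and Bcl11a) lower in Htt-null RA-DIFF by the labels, against 11.7% and 8.99% of all genes, with a median of 0.01. Fli1 passed the limit only through the RA-DIFF library labelled Htt-null, where it is high (5.0 CPM). Hhex passed it only through ESC and stood at 0.152 and 0.63 CPM in the RA-DIFF libraries labelled wild type and Htt-null. The count and median are therefore partly set by the limit and are a description only. Fli1, an ETS factor of blood and vessels, had 6, 0, 69 and 492 reads in wild-type ESC, Htt-null ESC and the RA-DIFF libraries labelled wild type and Htt-null, and a log2 ratio of 2.98 (2.65 to 3.41) in RA-DIFF. Ikzf1, the lymphoid factor Ikaros, had 146, 126, 207 and 44 reads and a ratio of -2.0 (-2.55 to -1.57). Mecom, needed by blood stem cells, had 137, 232, 4089 and 950 reads and a ratio of -1.92 (-2.02 to -1.82), in the direction of Tal1.

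Of the 12 endothelial genes above the limit 6 were higher and 1 lower in Htt-null RA-DIFF by the labels, against 11.7% and 8.99% of all genes, with a median of 0.81. Emcn, among the 6, passed the limit only through the RA-DIFF library labelled Htt-null, where it is high (11.0 CPM). The count and median are therefore partly set by the limit and are a description only. Kdr, the VEGF receptor of endothelium and its mesodermal precursors, had 79, 113, 2011 and 7060 reads and a log2 ratio of 2.0 (1.93 to 2.07). Emcn, an endothelial sialomucin, had 0, 0, 110 and 1084 reads and a ratio of 3.46 (3.20 to 3.78). Pecam1, which ESC also express strongly, had 15620, 13855, 374 and 128 reads and was the lower one, with -1.35 (-1.66 to -1.07). The library with the most Kdr, Emcn and Fli1 was also the one with the most Runx1. Of the 8 fibroblast and mesenchyme markers 7 were higher and 0 lower in that library (median 1.92, against the same shares), Acta2 with 294, 92, 4593 and 62554 reads, and the part of these cell types in the Runx1 ratio was not tested.

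Downstream of Epor, 15 of 18 listed signalling genes and related receptors were above the limit, and 4 (Kitl, Lyn, Stat5a and Socs3) were higher and 1 (Socs2) lower in Htt-null RA-DIFF by the labels, against 11.7% and 8.99% of all genes (median 0.09). Jak2, the kinase bound to Epor, had 2012, 1397, 11639 and 10891 reads and, like Epor, a ratio near 0 between the RA-DIFF libraries, 0.09 (0.05 to 0.13). Kitl, the ligand of the Kit receptor, had 366, 409, 16592 and 46436 reads and a ratio of 1.67 (1.65 to 1.70). Lyn, a Src-family kinase, had 989, 613, 823 and 2193 reads and a ratio of 1.60 (1.48 to 1.72). In ESC 0 of the 15 were higher or lower, against 5.14% and 3.47% of all genes.

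The genes whose pattern over the 4 libraries was most like that of a member were found by the distance between centred log2 CPM values, over 18587 genes. For Tal1 these were Gm27032 (distance 0.368), Pax5 (0.629) and Vstm2a (0.723). Pax5, known for the B lineage and for the midbrain, had 70, 94, 9280 and 1303 reads in wild-type ESC, Htt-null ESC and the RA-DIFF libraries labelled wild type and Htt-null. No gene came closer to Tal1 than 0.368, while for Lmo2 Samd10 lay at 0.065 and for Epor Gm16089 at 0.057. For Runx1 the nearest were Myh8 (0.101), Ust (0.139) and Prickle2 (0.158), and for Klf1 Tsnaxip1 (0.181), Gm11714 (0.202) and Gm29202 (0.203). For Spi1 the gene 4933440N22Rik on another chromosome had the same 35, 56, 0 and 0 reads (distance 0.0), followed by Myl7 (0.103) and Selplg (0.155). With 4 libraries such likeness is a description of 4 values.

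Small RNA libraries of the 4 conditions held 12888905 reads in wild-type ESC, 11976744 in Htt-null ESC, 25656673 in the RA-DIFF sample labelled wild type and 24290346 in the one labelled Htt-null. Whether the RA-DIFF labels of the small RNA libraries share the conflict seen for Htt was not tested. Of the miRNAs known from blood, 14 were among the 1073 of the table, and mature sequences from RefSeq (GRCm38.p6) were matched for 10. For 9 they are shown with the seed, bases 2 to 8, in capitals, because the seed sets which transcripts a miRNA pairs with.
miR-451a: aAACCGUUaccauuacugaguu
miR-144-3p: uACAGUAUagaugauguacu
miR-142a-5p: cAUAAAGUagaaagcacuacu
miR-142a-3p: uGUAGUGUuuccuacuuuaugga
miR-223-3p: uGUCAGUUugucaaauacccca
miR-155-5p: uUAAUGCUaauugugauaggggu
miR-126a-3p: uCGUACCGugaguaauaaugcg
miR-221-3p: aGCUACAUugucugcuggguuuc
miR-222-3p: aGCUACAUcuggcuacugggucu
The seeds of miR-221-3p and miR-222-3p are the same, and these miRNAs lie together on chromosome X, at chrX:19146307-19146329 and chrX:19146901-19146923 on the minus strand. The other printed seeds differ from one another. The mature arms of miR-144 and miR-451a, a red cell cluster controlled by Gata1, lie at chr11:78073047-78073066 and chr11:78073186-78073207 on the plus strand.

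The red cell miRNAs were scarce, as the globins were. miR-451a had 17 and 20 reads in wild-type and Htt-null ESC and 2 and 4 in the RA-DIFF libraries labelled wild type and Htt-null. miR-144-3p had 8, 9, 0 and 0 reads in the same order, and miR-144-5p 3, 19, 2 and 7. The myeloid miR-223-3p had 10, 10, 0 and 1. All of them stood at a few reads in RA-DIFF, and no genotype difference could be read there.

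Other miRNAs known from leukocytes, miR-142a, miR-150-5p and miR-155-5p, had more reads in the ESC libraries than miR-223-3p. miR-142a-5p had 557 reads in wild-type ESC, 1800 in Htt-null ESC, 10 in the RA-DIFF sample labelled wild type and 21 in the one labelled Htt-null, and miR-142a-3p, from the same hairpin, 207, 553, 3 and 8. Both arms thus stood higher in Htt-null than in wild-type ESC, with log2 ratios of 1.56 and 1.28, and in RA-DIFF the ratios were 1.46 and 1.47 by the labels, from few reads. miR-150-5p, known from mature lymphocytes, had 2265, 1111, 17 and 43 reads and a ratio of -1.15 in ESC. miR-486a-5p had 27, 23, 76 and 67 reads and miR-486b-5p 245, 121, 107 and 119. miR-155-5p, an immune cell miRNA, had 560, 635, 382 and 158 reads.

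miR-221-3p, reported to act on Kit, had 1798, 1952, 6906 and 2197 reads and miR-222-3p 123, 142, 222 and 67. In both, the RA-DIFF sample labelled Htt-null stood below the one labelled wild type, with log2 ratios of -1.09 and -1.15. miR-126a-3p, an endothelial miRNA, had 1286, 1380, 1027 and 1840 reads and a ratio of 1.40 in RA-DIFF. By the labels this is the direction of Kdr and Emcn, and it would be opposite if only the RNA labels were exchanged. miR-126a-5p had 6, 6, 9 and 23 reads. These ratios use trimmed-mean scaling; scaling by total counts moves the median miRNA by 0.19 in ESC, by -0.45 between the RA-DIFF libraries and by -1.14 and -1.85 between RA-DIFF and ESC in cells labelled wild type and Htt-null. Under total counts the ratios of miR-221-3p, miR-222-3p and miR-126a-3p in RA-DIFF became -1.57, -1.61 and 0.92, and those of miR-142a-5p and miR-142a-3p in ESC 1.80 and 1.52, without a change of direction. Between RA-DIFF and ESC the drop of miR-142a and miR-150-5p kept its direction under both scalings, with log2 ratios from -7.84 to -3.79. The direction for miR-221-3p flipped in cells labelled Htt-null, from 1.03 to -0.85, as did that of miR-126a-3p, from 1.27 to -0.60, and that of miR-486b-5p, from 0.82 to -1.03. In cells labelled wild type it flipped for miR-222-3p, from 1.01 to -0.14, and for miR-126a-5p, from 0.59 to -0.32. Between the RA-DIFF libraries it flipped for miR-486a-5p, from 0.37 to -0.10. In ESC the ratios of miR-223-3p, miR-126a-3p, miR-126a-5p and miR-221-3p, all close to 0, also changed sign.

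**Figure D5:**
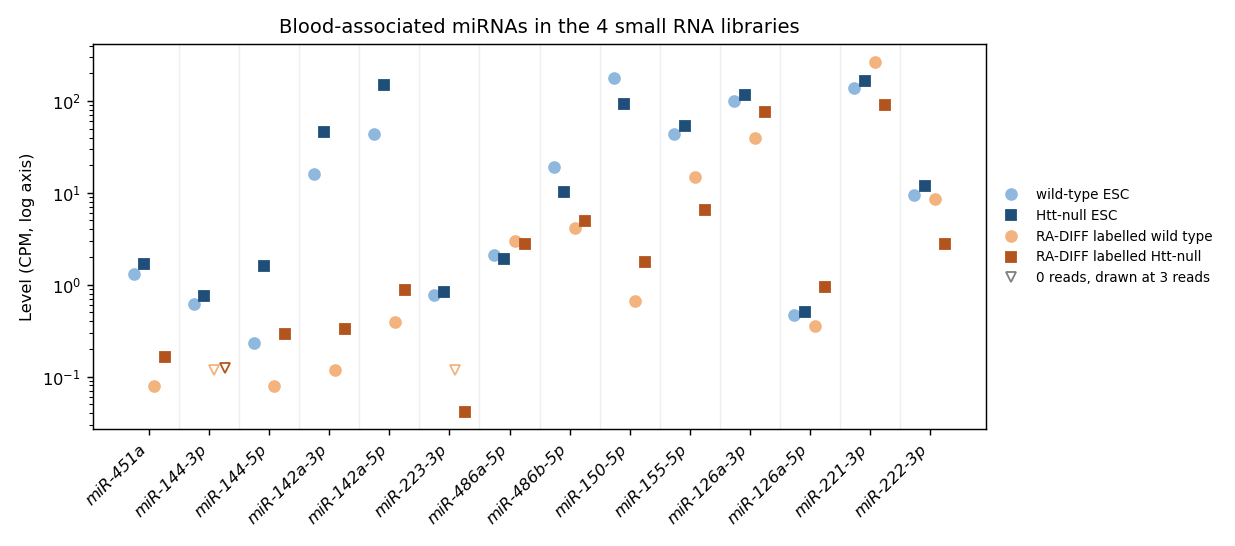
Level of 14 blood-associated miRNAs (CPM of total miRNA reads, log axis) in the 4 small RNA libraries, 1 point per library; open triangles mark 0 reads and are drawn at the level of 3 reads. The arms of miR-142a and miR-150-5p stand high in the ESC libraries (557 and 2265 reads in wild-type ESC) and low in RA-DIFF (10 and 17 reads in the library labelled wild type).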

How the data were processed

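Total RNA of each culture was made into strand-specific poly-A libraries and small RNA libraries, sequenced on the HiSeq2000. Per the labels and the study's methods, the authors mapped RNA reads with TopHat2 2.0.14 to GRCm38.p4 and deposited raw counts per gene made with HTSeq 0.6.1, its strand setting given only as default; small RNA reads were trimmed with cutadapt 1.3, mapped with BWA and deposited as counts per miRNA. The tables hold no normalized columns.

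The counts were analysed with edgeR 4.0.16 in R 4.3.3. Log2 ratios are differences of log2 CPM with TMM scaling and a prior count of 2. Since each of the 4 RNA conditions had 1 library, no test was made: genes with an average log2 CPM above 0 were called higher or lower past a log2 ratio of 0.75. Counting intervals are exact (Clopper-Pearson) 95% intervals on the split of reads of a pair, without a prior; PCR duplicates are not independent molecules, so that they cover counting error only. Fold bounds against 0 reads use 3 reads. The ratio code was tested on simulated data. DESeq2 1.42.0 size factors, a prior count of 0.5, total counts, a 10-read rule, a fold limit of 1, an assumed dispersion and exchanged RA-DIFF labels were tried as alternatives.

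The members and gene lists were chosen with earlier results of these data known. From each list the text names up to 4 genes with the most reads, up to 2 past the fold with the largest ratio in each genotype comparison, and genes whose near-absence defines a cell type; all 9 members and all 14 miRNAs are named. Other genes that make up a count of 5 or fewer were named after their values were seen. Some genes that the rule selects are not reported here.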

Additional observations from a re-analysis of the deposited data

Results flagged for a closer look

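For 4 regulators with at least 10 reads in both stages the Htt ratio had one sign in ESC and the other in RA-DIFF by the labels, with 1 library on each side, so that the difference was not tested. For Lmo2 and Runx1 the counting interval in ESC included 0, so that they had no detectable direction there. The RA-DIFF minus ESC difference of the log2 ratios was -4.57 for Tal1, -1.07 for Lmo2, -1.9 for Klf1 and 1.75 for Runx1. The RA ratio of Klf1 was near 0 in cells labelled wild type and negative in cells labelled Htt-null, a difference of -1.9 on the log2 scale that was not tested either. With the RA-DIFF labels exchanged, the Htt ratios of Tal1, Lmo2, Klf1 and Runx1 would have the same sign in both stages.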

How the results depend on the processing

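With 1 library per condition no replicate could be left out, and no paired analysis was possible because the labels give no shared replicate numbers. Under DESeq2 size factors, a prior count of 0.5 and total counts, the 36 log2 ratios of the members stayed within their counting intervals or within 0.1 of the value given. Past the fold were 1334 genes in ESC, 3210 in RA-DIFF by genotype, 9307 between RA-DIFF and ESC labelled wild type and 9164 labelled Htt-null. A rule of 10 reads in place of the expression limit gave 3916, 5750, 15126 and 14673, and raised the members past the fold to 3 in ESC, 6 in RA-DIFF over ESC labelled wild type and 8 labelled Htt-null. A fold limit of 1 gave 744 genes in ESC and 2 members in RA-DIFF over ESC labelled Htt-null. An exact test with an assumed dispersion of 0.1 gave 252 genes in ESC, 1341 in RA-DIFF, 0 members in ESC and 2 members in RA-DIFF over ESC for each label; the dispersion follows the study's methods and cannot be measured from these libraries. With the RA-DIFF labels exchanged, the RA-DIFF ratio of Htt-null to wild type turned to 2.92 for Tal1 and -1.35 for Runx1. The RA-DIFF over ESC ratio was then 4.38 in wild type and 5.65 in Htt-null for Tal1, 2.06 and 1.10 for Runx1, 1.3 and 1.59 for Lmo2, -1.10 and -0.70 for Klf1, 1.29 and 0.75 for Epor, and -0.66 and -1.9 for Lyl1, while Gata1, Gfi1b and Spi1 stayed negative. Depth limits Gfi1b, Gata1 and Spi1 in RA-DIFF, with at most 3 reads each.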
